A study of Rattus norvegicus with 30 samples.

Results

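The genes described here make ribosomes. They were chosen by name, as the genes whose symbols place them in ribosomal RNA processing and subunit assembly (the Nop, Nol, Noc, Utp, Rrp and Tsr families), in RNA polymerase I or III (Polr1 and Polr3) or in the polymerase III general factors (Gtf3), together with 23 further names such as Npm1, Bop1 and Ddx18. Of 9999 gene names in the files, 39 met the rule, of which 7 came from the 23 further names. The other 16 names were not analysed here. Enough reads to test were found for 29 of the 39, which reached 1 CPM in 3 or more of 30 samples, a filter met by 4363 names in all. CPM is the number of reads of a gene scaled to a common library total.

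A ribosome is built in the nucleolus. RNA polymerase I transcribes a long precursor of most ribosomal RNA, RNA polymerase III adds the remaining small ribosomal RNA together with the transfer RNAs, and a large set of assembly factors cuts, modifies and folds the precursor into the small and large subunits before they leave the nucleus. Cells that grow or prepare to divide are known to raise this pathway, and cells that stop dividing are known to lower it.

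The cells were bone marrow mesenchymal stem cells of 3 female Sprague Dawley rats aged 3 weeks, a mixed primary culture that adheres to plastic and can form bone, fat and cartilage cells. Undifferentiated cells (CON) were compared with cells kept for 3, 12 or 72 h in commercial osteogenic (OS), adipogenic (AD) or chondrogenic (CH) medium, which gave 10 groups of 3 samples. Each sample pooled 3 individual cultures, and no sources used here state how cultures were assigned to rats, so the p-values measure only the spread between these samples. No uninduced cells were kept alongside to 3, 12 or 72 h, so the change of medium and the lineage signal cannot be told apart, and all 9 comparisons with CON shared the same 3 CON samples.

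Total reads per sample ranged from 3899609 to 9046719 (median 6579543), and 3 reads in a sample corresponded to 0.332 to 0.769 CPM. The listed genes took 38.9 to 71.4% of each sample's total, and this share moved with the groups, from 53.7 to 54.2% in CON to 68.7 to 71.4% at 12 h of osteogenesis and 38.9 to 49.1% at 72 h of adipogenesis. Of 10 mesenchymal markers 7 were listed and 4 tested. Thy1, Cd44 and Itgb1 were abundant in CON (means of 8052, 600 and 7730 CPM) and made up nearly all of that list's sum there. The other listed ones added next to nothing in CON, among them Eng, which stayed at or below 0.66 CPM. The haematopoietic and endothelial lists summed to at most 0.86 and 7.08 CPM in any sample. Only 3 of 10 haematopoietic and 3 of 6 endothelial markers were listed, without Ptprc, Pecam1 and Cdh5. These low sums therefore cannot tell whether such cells were present. The other marker lists moved with the groups. The summed mean of the mesenchymal list was 16382 CPM in CON and 4514 and 9286 CPM at 72 h of adipogenesis and chondrogenesis. The adipocyte list summed to 721 CPM in CON, 275 and 248 CPM at 3 h of osteogenesis and chondrogenesis and 1163, 1389 and 3221 CPM in the samples at 72 h of adipogenesis, the highest being replicate 3. Of 6 osteoblast markers 5 were listed, without Runx2, and 1 was tested, and of 6 chondrocyte markers 2 were tested, so both sums rest on few genes. The osteoblast list went from 2.74 CPM in CON to 247 CPM, and the chondrocyte list from 48.2 to 1321 CPM, at 72 h of chondrogenesis, while the osteoblast list was at 3.76 CPM at 72 h of osteogenesis. Their part in the results was not tested. Samples apart from their group were OS 3 h replicate 3, AD 12 h replicate 1 and AD 72 h replicate 3, and their effect is given beside the results they touch. In such bulk samples, fewer cells of a type and less RNA per cell cannot be told apart.

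The genes as a group were higher 3 h after induction in every lineage and were near the CON level by 72 h. Their summed level was 2600 ± 56.7 CPM in CON (SD, n = 3) and 6076 ± 67.3 CPM at 3 h of osteogenesis, 2.34 times the CON mean. The sum was 5094 ± 115 CPM at 3 h of adipogenesis and 5390 ± 124 CPM at 3 h of chondrogenesis. At 12 h it stood at 5613 ± 18.1 CPM in osteogenesis but at 3879 ± 519 and 3870 ± 251 CPM in the adipogenic and chondrogenic samples. By 72 h it was 3026 ± 85.2, 2845 ± 41.8 and 2720 ± 179 CPM in the same order. No CON sample reached the lowest sample of any 3 h or 12 h group or of the 72 h osteogenic and adipogenic groups, while the 72 h chondrogenic samples overlapped CON, and no test was run on the sums.

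**Figure D1:**
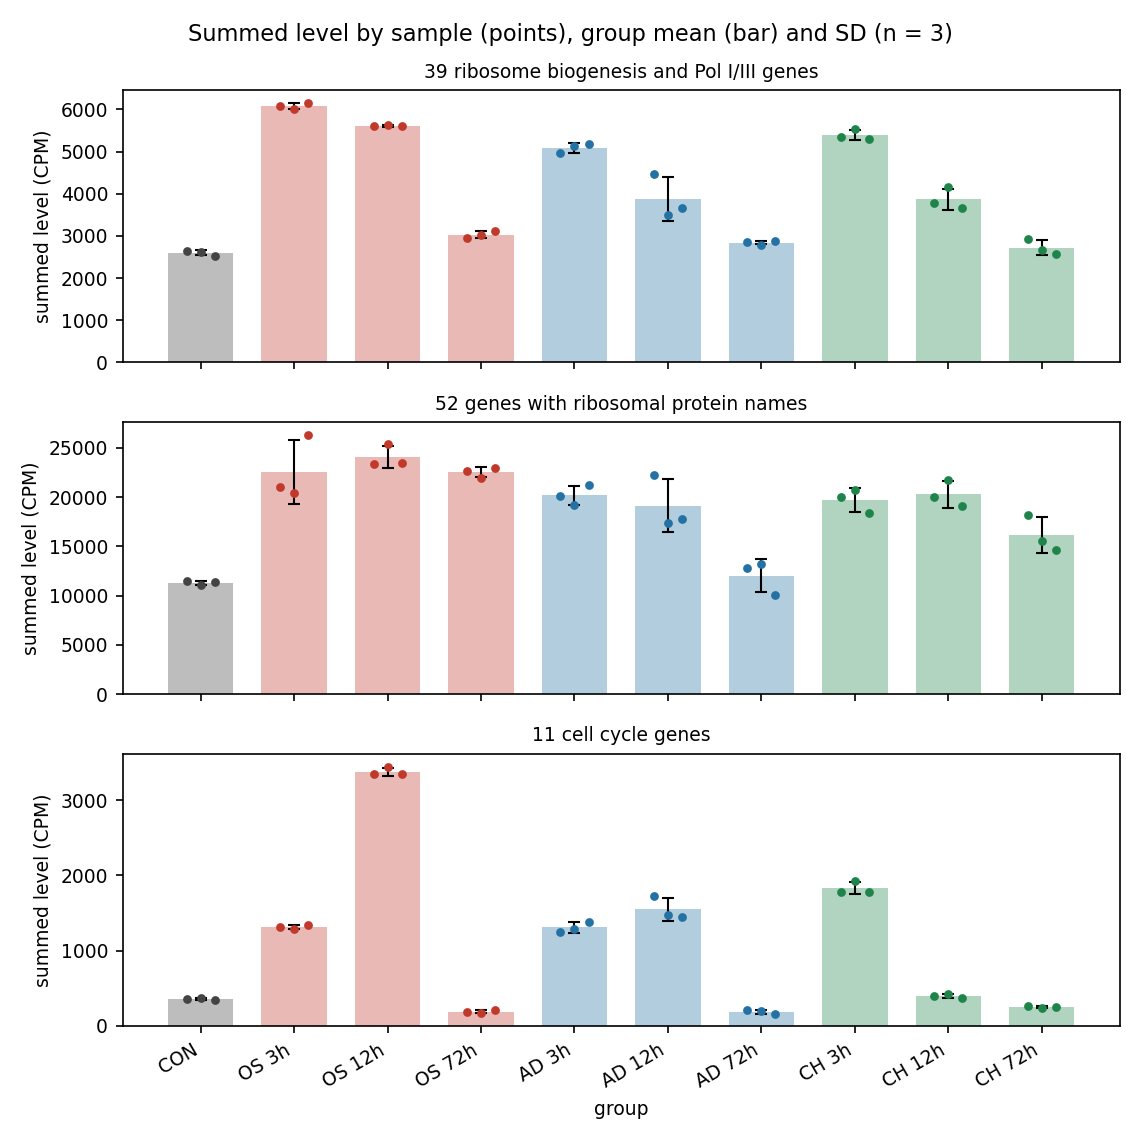
Summed level in CPM, by sample (points), with the group mean (bar) and SD (n = 3), of the ribosome biogenesis and polymerase genes, of the ribosomal protein genes and of the cell cycle genes listed. The assembly genes have a mean sum of 2600 CPM in CON, 6076 CPM at 3 h of osteogenesis and 3026 CPM at 72 h, while the ribosomal protein genes stand at 22505 CPM at that time against 11319 CPM in CON.

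Gene by gene, a difference on the log2(CPM + 1) scale was called when it was 1 or more in size and its adjusted p in limma, over all 4363 tested names, was under 0.05. At 3 h of osteogenesis 17 of the 29 tested genes were called higher and 0 lower, where 11.7% of all tested names were called higher. The adipogenic samples at 3 h had 14 higher and 0 lower (12.4% of all tested names higher) and the chondrogenic samples 14 higher and 0 lower (13.1%). At 12 h the counts were 17 higher in osteogenesis (14.7%), 2 in adipogenesis (8.14%) and 2 in chondrogenesis (9.44%), with 0 lower in each, although edgeR, DESeq2 and a pseudocount of 0.1 called Gtf3c3 lower at 12 h of osteogenesis. Of all tested names 6.67, 6.42 and 4.88% were called lower at 3 h (OS, AD and CH), 7.15, 5.55 and 5% at 12 h and 5.29, 9.08 and 6.37% at 72 h. The median log2 fold change of the 29 genes at 3 h was 1.16 (OS), 0.95 (AD) and 0.92 (CH), against 0.09, 0.15 and 0.21 over all tested names, and 1.13, 0.44 and 0.55 at 12 h, against 0.09, 0.15 and 0.11. The 12 h medians were smaller with other scalings, at 0.80, 0.24 and 0.33 with median ratios and 0.62, 0.24 and 0.29 with quantile normalization. The same 12 genes were called in all 4 of the groups with the most calls, Bop1, Ddx18, Ftsj3, Nip7, Rrp15, Rrp1b, Npm1, Nol10, Nop9, Rrp12, Utp20 and Gtf3a. Of these, Bop1, Ftsj3, Rrp1b and Rrp12 kept their calls in all 4 groups under every alternative.

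At 72 h few of these genes passed the call rule. In osteogenesis limma called 0 of 29 (7.2% of all tested names higher), with 9 at an unadjusted p under 0.05, and edgeR and DESeq2 also called 0. In adipogenesis limma called 0 of 29 (6.19%), with 6 at an unadjusted p under 0.05, while edgeR and DESeq2 each called 1, Tsr1, higher. In chondrogenesis 1 was called higher, Nop10 (11.6%), and 5 were lower at an adjusted p under 0.05 without reaching the fold. The medians were 0.19, 0.14 and −0.07, against 0.08, −0.05 and 0.01 over all tested names. Other scalings moved the medians of the 29 genes, to 0.04, 0.33 and −0.08 with median ratios and 0.07, 0.35 and −0.21 with quantile normalization. With the listed-gene sum they were 0.10, 0.40 and −0.27.

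Levels were also compared sample by sample. All 3 samples lay above all 3 CON samples for 23, 24 and 25 of 29 genes in the osteogenic, adipogenic and chondrogenic samples at 3 h, where 29.5, 36.9 and 39% of all tested names did. At 12 h the counts were 24, 19 and 21 (36.3, 29.7 and 32.6% of all tested names), and at 72 h they were 15, 6 and 6 (28.8, 16.8 and 29%). At 72 h of chondrogenesis 7 of the 29 genes lay below every CON sample, where 22.1% of all tested names did. These levels are relative to a library total, and scaling by median ratios shifted the log2 fold changes of all tested names by a median of −0.18, −0.25, −0.19 and −0.26 at 3 h and 12 h of osteogenesis and at 3 h of adipogenesis and chondrogenesis. With that scaling the calls were 13, 10, 10 and 9 genes higher and 0 lower in these 4 comparisons, with medians of 0.92, 0.80, 0.76 and 0.59, and for all tested names at 3 h of osteogenesis 8.64% were then higher and 9.63% lower. Over the 7 comparisons with CON that had calls, all 67 calls kept their direction under every alternative, and 32 of the 67 passed the threshold under all of them. Leaving out OS 3 h replicate 3 left 18 genes called at 3 h of osteogenesis.

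**Figure D2:**
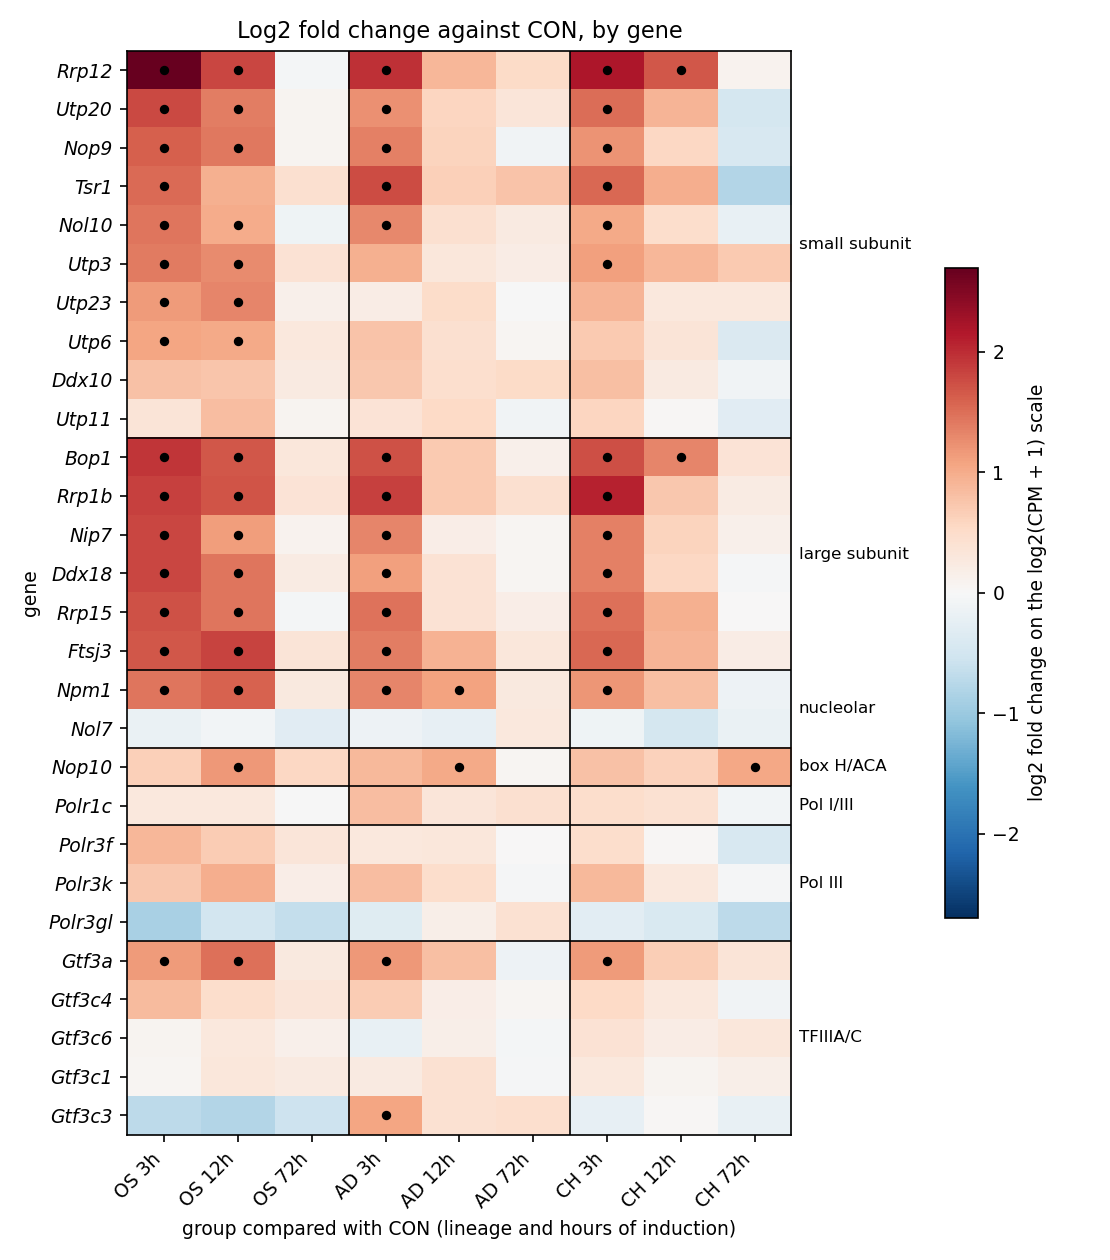
Log2 fold change against CON, on the log2(CPM + 1) scale, of tested genes (vertical axis, by role) in the 9 induced groups (horizontal axis), with called changes marked by dots. Calls are most frequent in the 3 h columns of all 3 lineages and the 12 h osteogenic column, and the 72 h columns hold 1 call, Nop10 in chondrogenesis.

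**Figure D3:**
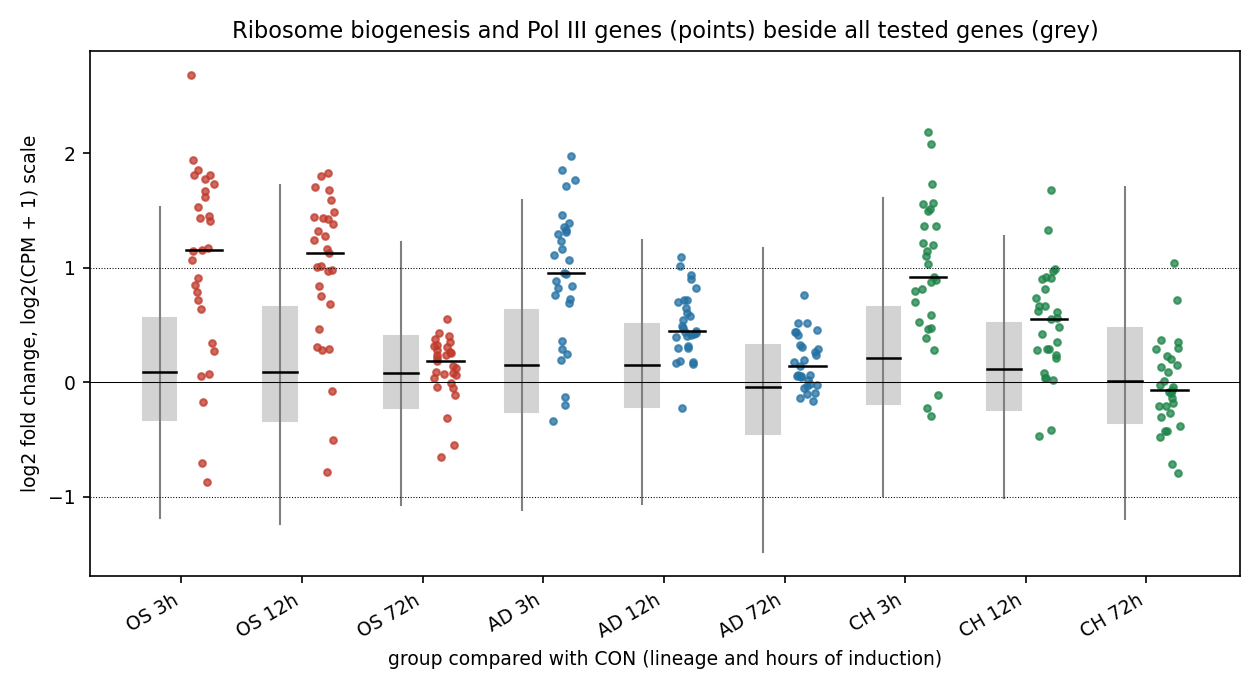
Log2 fold change against CON of each of the 29 genes (points) in each of the 9 groups, beside the spread of all 4363 tested names (grey). Most points sit above the middle of the grey distribution at 3 h and at 12 h of osteogenesis, with medians of 1.16 and 1.13 in osteogenesis, and around it at 72 h.

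Because many of these genes rose in the same groups, their promoters were read. RefSeq promoter windows (build GRCr8, 250 bases before to 50 after the start) were held for 33 of the 39 genes. The letters CACGTG, known as the E-box bound by Myc and related factors and identical on both strands, were searched in each window and overlap no other letters searched. They occurred in 10 of the 33 windows (30.3%), in 6.42% of all 33469 windows and in 8.53% of the 3458 windows of tested names, and among the members that were tested in 5 of 25 (20%). Of the windows of other processing genes listed beside the 39, 10 of 43 (23.3%) held it. Of the genes called at 3 h of osteogenesis 5 of 14 with a window held it, and of the tested genes not called there 0 of 11 did. A match is a description of letters and not a site of binding, and its part in the changes was not tested. The 5 windows are shown because they belong to called genes described below, in lower case from 5′ to 3′ on the gene's own strand, with CACGTG in capitals. They lie at chr13:35295923-35296222 (minus strand) for Ddx18, chr1:250655269-250655568 (minus strand) for Rrp12, chr13:100830763-100831062 (minus strand) for Rrp15, chr10:60258540-60258839 (plus strand) for Tsr1 and chr7:25102800-25103099 (minus strand) for Utp20, and the first base of the motif falls 13 and 127 bases before the start in Ddx18 and Utp20 and 4, 27 and 21 bases after it in Rrp12, Rrp15 and Tsr1.
Ddx18: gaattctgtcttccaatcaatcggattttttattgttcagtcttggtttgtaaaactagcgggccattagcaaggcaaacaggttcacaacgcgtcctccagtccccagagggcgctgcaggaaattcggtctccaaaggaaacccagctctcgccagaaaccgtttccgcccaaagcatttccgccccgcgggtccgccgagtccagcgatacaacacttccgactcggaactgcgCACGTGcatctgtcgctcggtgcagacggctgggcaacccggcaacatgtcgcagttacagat
Rrp12: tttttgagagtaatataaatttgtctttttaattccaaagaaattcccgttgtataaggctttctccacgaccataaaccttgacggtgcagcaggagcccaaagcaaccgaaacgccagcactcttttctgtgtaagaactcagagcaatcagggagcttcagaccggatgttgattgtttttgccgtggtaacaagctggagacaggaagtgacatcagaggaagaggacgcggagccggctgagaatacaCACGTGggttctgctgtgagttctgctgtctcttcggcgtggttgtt
Rrp15: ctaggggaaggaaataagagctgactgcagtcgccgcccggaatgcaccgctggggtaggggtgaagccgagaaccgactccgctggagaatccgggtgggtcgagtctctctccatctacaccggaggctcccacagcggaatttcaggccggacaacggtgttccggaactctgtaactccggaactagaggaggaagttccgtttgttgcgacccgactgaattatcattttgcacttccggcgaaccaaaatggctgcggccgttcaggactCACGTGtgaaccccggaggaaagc
Tsr1: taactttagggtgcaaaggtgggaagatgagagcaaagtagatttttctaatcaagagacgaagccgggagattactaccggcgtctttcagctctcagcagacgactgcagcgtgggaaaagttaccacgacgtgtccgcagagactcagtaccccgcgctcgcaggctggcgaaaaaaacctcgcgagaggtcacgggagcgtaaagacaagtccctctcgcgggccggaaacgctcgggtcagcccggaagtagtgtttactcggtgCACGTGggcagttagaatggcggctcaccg
Utp20: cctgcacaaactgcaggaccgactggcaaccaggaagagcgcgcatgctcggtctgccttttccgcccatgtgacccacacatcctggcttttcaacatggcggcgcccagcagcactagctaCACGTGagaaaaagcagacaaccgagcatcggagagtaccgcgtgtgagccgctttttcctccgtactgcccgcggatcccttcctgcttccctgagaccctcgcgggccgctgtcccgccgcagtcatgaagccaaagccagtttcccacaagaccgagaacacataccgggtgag

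Small-subunit factors numbered 12, of which 10 were tested. Many of them bind the precursor as it is made and form the small-subunit processome, a large particle that folds and cuts it. Others, such as Tsr1, act in late assembly. At 3 h 8 of the 10 were called higher with osteogenic medium, 5 with adipogenic and 6 with chondrogenic medium. The shares of all tested names called higher were 11.7, 12.4 and 13.1% (OS, AD and CH). At 12 h the counts were 7, 0 and 1 (14.7, 8.14 and 9.44%), those of AD and CH below or close to that share. By 72 h they were 0, 0 and 0 (7.2, 6.19 and 11.6%), and none of the 10 was called lower in any group. Their medians (log2) at 3 h were 1.42, 1.09 and 1.06, against 0.09, 0.15 and 0.21 over all tested names. At 72 h the medians were 0.11, 0.22 and −0.26, against 0.08, −0.05 and 0.01.

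Rrp12, a factor needed for export of the precursor subunits from the nucleus, had the largest log2 fold change of the 29 genes at 3 h of osteogenesis. Its level was 80.5, 82.2 and 68.5 CPM in the CON samples and 449, 452 and 613 CPM at 3 h of osteogenesis. The 3 osteogenic samples lay far above CON with no overlap, a log2 fold change of 2.68 (SE 0.14; limma, adjusted p = 1.15e-15). At 12 h of osteogenesis it read 273, 271 and 267 CPM, and at 72 h 69.2, 72.1 and 82.6 CPM, inside the CON range but for the highest sample. In adipogenesis Rrp12 stood at 312, 297 and 305 CPM at 3 h, at 196, 112 and 138 CPM at 12 h and at 101, 119 and 112 CPM at 72 h. All these adipogenic samples exceeded CON, with log2 fold changes of 1.97, 0.90 and 0.52, of which only the first was called (adjusted p = 9.1e-13). The chondrogenic samples held 359, 363 and 337 CPM at 3 h and 238, 271 and 235 CPM at 12 h, both called (log2 fold changes of 2.18 and 1.67), and 79.2, 86 and 79.6 CPM at 72 h, which overlapped CON.

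Utp20, a long scaffold protein of the processome, varied little between replicates. It measured 183, 186 and 186 CPM in CON, 651, 632 and 620 CPM at 3 h of osteogenesis and 484, 483 and 487 CPM at 12 h, higher in all 6 samples (log2 fold changes of 1.77 and 1.38, SE 0.10; limma, adjusted p = 4.32e-15 and 5.19e-13). At 3 h it was also called in adipogenesis (417, 446 and 442 CPM) and in chondrogenesis (517, 518 and 552 CPM). The call at 3 h of adipogenesis was lost with edgeR, DESeq2, median ratios and quantile normalization, and that at 12 h of osteogenesis with edgeR and quantile normalization. At 72 h of chondrogenesis Utp20 read 125, 149 and 126 CPM, below every CON sample, at a log2 fold change of −0.48 (adjusted p = 1.96e-04) that did not reach the fold required for a call.

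Nop9, an RNA-binding protein of the early small subunit, and Nol10, a processome protein, were called at 3 h in all 3 lineages and at 12 h of osteogenesis. Nop9 held 47.6, 53.2 and 64.9 CPM in CON, 150, 140 and 235 CPM at 3 h of osteogenesis and 133, 125 and 128 CPM at 3 h of chondrogenesis, with no overlap (log2 fold changes of 1.62 and 1.22, SE 0.14). The chondrogenic call of Nop9, and the calls of Nol10 at 3 h of chondrogenesis and 12 h of osteogenesis, were lost with edgeR, DESeq2 and each of the 3 other scalings. Nol10 held 79.1, 96.3 and 93.1 CPM in CON and 275, 276 and 189 CPM at 3 h of osteogenesis, where replicate 3 was the lowest of the 3 but above CON (log2 fold change of 1.44, SE 0.14; adjusted p = 5.71e-10). Replicate 3 thus stood above the other samples of its group for Nop9 and below them for Nol10. Over the 24 genes with a mean of at least 10 CPM, that library was more than 0.5 (log2) from the other samples of its group for 9, above them for 4 and below them for 5.

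Utp3, Utp6 and Utp23, further processome components, were called at both 3 h and 12 h of osteogenesis, and Utp3 also at 3 h of chondrogenesis. With edgeR, DESeq2 and each of the 3 other scalings Utp23 and Utp6 lost both calls and Utp3 lost those at 12 h of osteogenesis and 3 h of chondrogenesis. Utp23 read 30.9, 36.2 and 27.3 CPM in CON, 81.8, 84.2 and 51.6 CPM at 3 h of osteogenesis, and 36.7, 36.5 and 34.8 CPM at 3 h of adipogenesis. The osteogenic samples cleared CON (log2 fold change of 1.16, SE 0.17; limma, adjusted p = 2.47e-06), whereas the adipogenic samples overlapped its range (0.20; adjusted p = 0.4).

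Tsr1, a GTPase-like protein of late small-subunit assembly, was measured from few reads. It stood at 1.72, 3.62 and 3.18 CPM in CON and at 11.4, 11.8 and 12 CPM at 3 h of adipogenesis, all higher (log2 fold change of 1.77, SE 0.33; limma, adjusted p = 5.15e-05). At 3 h it was called in osteogenesis (1.53) and chondrogenesis (1.56) as well. At 72 h of chondrogenesis its level was 0.769, 0.663 and 2.45 CPM, and replicates 1 and 2 held 3 reads each. Of the other tested genes of this role, the helicase Ddx10 and the processome component Utp11 were called in no comparison with CON, with log2 fold changes between −0.31 and 0.84.

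**Figure D4:**
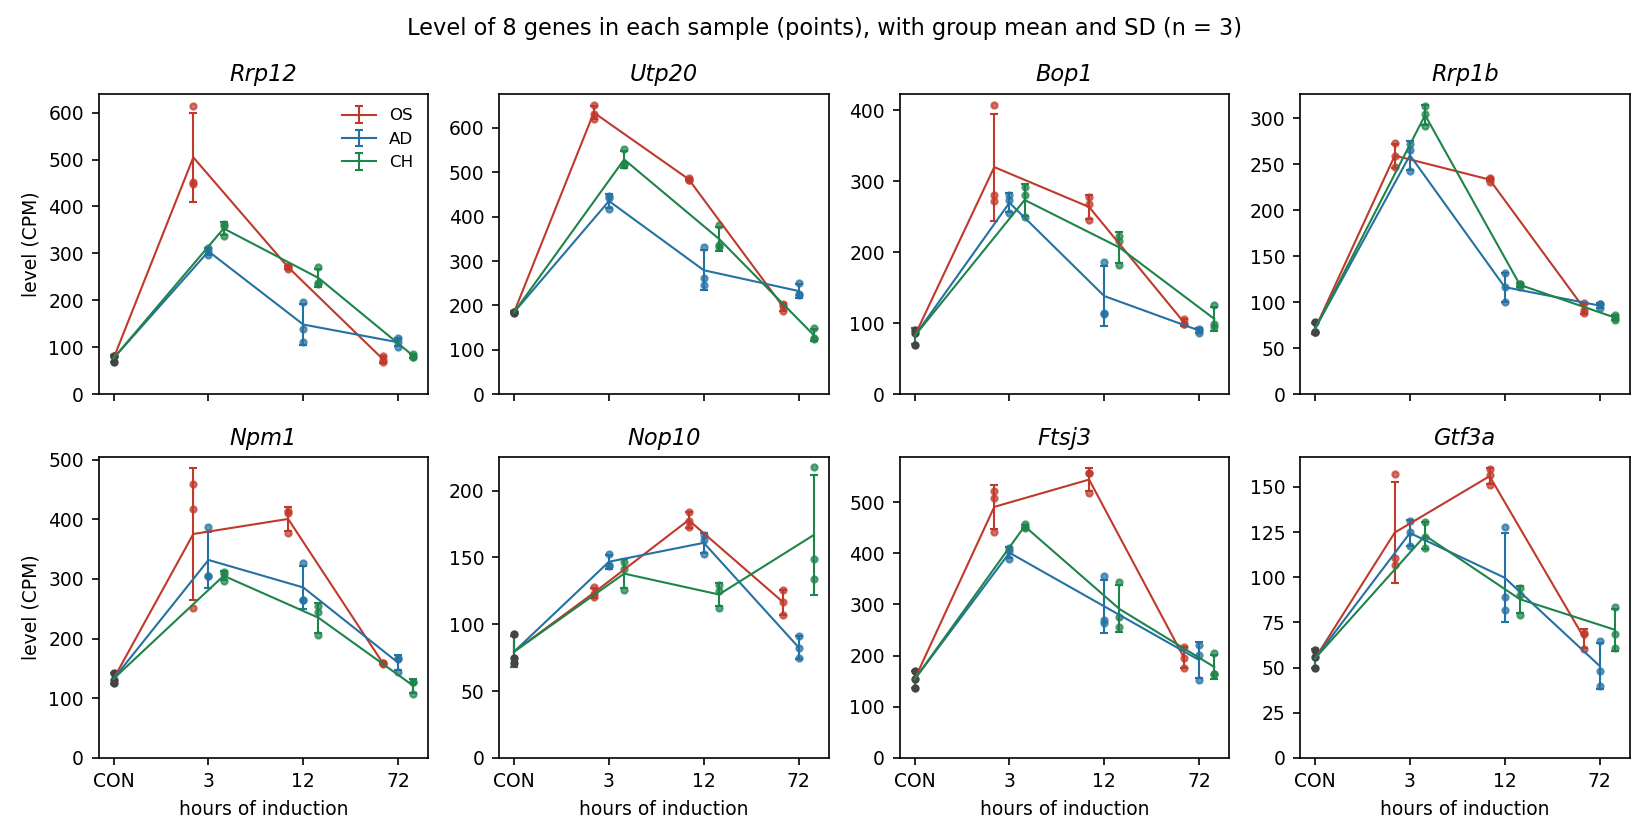
Level in CPM (vertical axis, from 0) of 8 genes at CON and after 3, 12 and 72 h (horizontal axis) of osteogenic, adipogenic and chondrogenic induction, as samples (points) with group mean and SD (n = 3). Rrp12 peaks at 3 h, at 449 to 613 CPM in osteogenesis, and the osteogenic samples stay highest at 12 h for most genes drawn.

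Large-subunit factors numbered 11, of which 6 were tested. All 6 were called higher at 3 h in each lineage (11.7, 12.4 and 13.1% of all tested names in OS, AD and CH). At 12 h osteogenesis had 6 calls, adipogenesis 0 and chondrogenesis 1 (14.7, 8.14 and 9.44%), and at 72 h each had 0 (7.2, 6.19 and 11.6%). The medians (log2) at 3 h were 1.81, 1.42 and 1.53 in the osteogenic, adipogenic and chondrogenic samples and 1.56, 0.55 and 0.82 at 12 h. The call of Nip7 at 12 h of osteogenesis and that of Ddx18 at 3 h of adipogenesis were lost with edgeR, DESeq2 and each of the 3 other scalings. These 6 genes are Bop1, Ddx18, Ftsj3, Nip7, Rrp15 and Rrp1b.

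Bop1 is a subunit of the complex that processes the large-subunit precursor RNA with Pes1 and Wdr12. Its level was 91, 69.2 and 86 CPM in CON and 272, 281 and 407 CPM at 3 h of osteogenesis, with no overlap (log2 fold change of 1.94, SE 0.16; limma, adjusted p = 1.8e-11). Bop1 was the 1 large-subunit factor called at 12 h of chondrogenesis, at 215, 223 and 182 CPM (1.33; adjusted p = 4.87e-08), a call lost with quantile normalization.

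Rrp1b, a nucleolar protein bound to large-subunit precursors, had the smallest SE of these 6 genes. It held 68.2, 67.3 and 78.4 CPM in CON and 305, 314 and 292 CPM at 3 h of chondrogenesis, the group with its highest level. These samples cleared CON by a log2 fold change of 2.08 (SE 0.09; limma, adjusted p = 6.91e-17). The osteogenic samples read 259, 247 and 273 CPM at 3 h and 231, 234 and 235 CPM at 12 h, whereas the adipogenic samples went from 266, 242 and 272 CPM to 132, 101 and 117 CPM and the chondrogenic samples to 116, 120 and 120 CPM. At 12 h the osteogenic samples thus stood above every adipogenic and chondrogenic sample.

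Ddx18, an RNA helicase, read 93.1, 78.1 and 86 CPM in CON, 295, 288 and 323 CPM at 3 h of osteogenesis and 182, 169 and 208 CPM at 3 h of adipogenesis, higher in both (log2 fold changes of 1.80 and 1.11, SE 0.11). Ftsj3, a methyltransferase of the precursor RNA, stood at 169, 155 and 137 CPM in CON and at 557, 557 and 518 CPM at 12 h of osteogenesis, its highest group (1.82, SE 0.13; adjusted p = 1.51e-12). Nip7, a small protein of large-subunit assembly, was at 44.3, 39.7 and 37.9 CPM in CON and 139, 132 and 164 CPM at 3 h of osteogenesis (1.81, SE 0.14). Rrp15 was at 43.5, 43.3 and 41.9 CPM in CON and at 165, 169 and 108 CPM at 3 h of osteogenesis (1.73, SE 0.19), with replicate 3 again apart but above CON. In all 4 genes the samples of the named groups lay wholly above CON.

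Npm1, nucleophosmin, is an abundant nucleolar chaperone of subunit assembly and export. Its level was 126, 130 and 143 CPM in CON and 417, 458 and 251 CPM at 3 h of osteogenesis, all above CON although replicate 3 stood well below the other two (log2 fold change of 1.45, SE 0.15; limma, adjusted p = 2e-09). At 12 h of osteogenesis it held 414, 378 and 411 CPM (1.59; adjusted p = 2.26e-10). At 12 h of adipogenesis it held 327, 265 and 265 CPM, a call (1.10; adjusted p = 5.64e-07) that was lost without AD 12 h replicate 1, at 0.995, and with edgeR, DESeq2, median ratios and quantile normalization, at 0.81 to 0.85. That library carried an adipocyte marker sum of 254 CPM, against 1094 and 1028 CPM in its group, and its level exceeded the other samples of the group by more than 0.5 (log2) for 7 of 24 of these genes, which left 1 call at 12 h of adipogenesis without it. Npm1 was summed over 2 entries of that name. The part of that library's marker level in these values was not tested.

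Nop10 is a small protein of the box H/ACA particles, which turn uridines of ribosomal RNA into pseudouridine and also belong to telomerase. It stood at 92.7, 70.9 and 74.9 CPM in CON and at 128, 123 and 120 CPM at 3 h of osteogenesis, above CON but under the fold required (log2 fold change of 0.64). Nop10 was called at 12 h of osteogenesis (177, 184 and 173 CPM; 1.16; limma, adjusted p = 9.34e-09) and of adipogenesis (153, 167 and 163 CPM; 1.02; adjusted p = 2.37e-07). In adipogenesis it had already read 144, 153 and 143 CPM at 3 h (0.89), and its change from 3 h to 12 h was 0.13 (adjusted p = 0.491). Both 12 h calls were lost with edgeR, DESeq2 and each of the 3 other scalings, and the adipogenic one also without CON replicate 2 or 3 (0.94 and 0.98) or AD 12 h replicate 2 (0.99). At 72 h of chondrogenesis its samples read 218, 149 and 134 CPM (1.04; adjusted p = 1.13e-07), all above CON, a call lost with edgeR, quantile normalization and the listed-gene sum, and without replicate 1 the fold was 0.83 and no gene was called there.

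Polymerase genes with enough reads to test were mostly those of polymerase III. Of polymerase I itself the name rule found only Polr1b, a core catalytic subunit, with at most 1 read in any sample, and Polr1c, shared by polymerases I and III, was at or below 3.46 CPM. The polymerase I part of the group therefore rests on next to no reads. Of the polymerase III subunits, Polr3k and Polr3f stayed under the fold in every group, with log2 fold changes between −0.43 and 0.98.

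Polr3gl, an alternative form of a polymerase III subunit, was at the limit of detection. It stood at 1, 1.53 and 0.607 CPM in CON and 0.157, 0.158 and 0 CPM at 3 h of osteogenesis, the latter from at most 1 read a sample, lower in all 3 samples (log2 fold change of −0.87; adjusted p = 0.0101) but not called by limma. On recovered reads edgeR and DESeq2 called 2 of the 29 genes lower there, Polr3gl and Gtf3c3, beside 13 higher. Of all tested names these tools called 12.61 and 12.63% lower and 10.36 and 10.43% higher.

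The polymerase III general factors numbered 6, of which 5 were tested. Gtf3a (TFIIIA), which starts transcription of the small ribosomal RNA made by polymerase III, was called at 3 h in every lineage and at 12 h of osteogenesis. It read 59.7, 55.9 and 49.6 CPM in CON, 110, 107 and 157 CPM at 3 h of osteogenesis and 151, 160 and 157 CPM at 12 h, higher throughout (log2 fold changes of 1.15 and 1.49, SE 0.16; limma, adjusted p = 8.81e-07 and 6.15e-09). Without OS 3 h replicate 3 the 3 h value was 0.97 and no longer a call. All 3 of its 3 h calls were lost with edgeR, DESeq2 and each of the 3 other scalings, at 0.68 to 0.97, and the 12 h call with quantile normalization (0.94).

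The TFIIIC subunits, which recognise the internal promoters of polymerase III genes, had 1 call. Gtf3c1, Gtf3c4 and Gtf3c6 were called in no group. Gtf3c4 held 190, 196 and 174 CPM in CON and 318, 311 and 384 CPM at 3 h of osteogenesis (log2 fold change of 0.85; limma, adjusted p = 9.25e-08), and at 3 h its samples stood above every CON sample in all 3 lineages, under the fold required in each (0.69 in adipogenesis and 0.53 in chondrogenesis). Gtf3c1 held 541, 536 and 512 CPM in CON and 522, 477 and 664 CPM at 3 h of osteogenesis, overlapping CON (log2 fold change of 0.05). Gtf3c3 was the 1 gene called at 3 h of adipogenesis alone, at 3.54, 4.56 and 5.2 CPM against 2.29, 2.23 and 0.607 CPM in CON (1.07, SE 0.36; limma, adjusted p = 0.0157), a call lost with edgeR, DESeq2 and each of the 3 other scalings, while the osteogenic samples at 3 h read 0.313, 1.11 and 0.415 CPM. No sample of this gene held more than 35 reads.

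The 10 untested genes were near 0. Rrp8, Rrp1, Nop53, Nop16 and Noc3l of the large subunit, Tsr2 and Wdr75 of the small subunit, Gtf3c5, Polr1b and Nol3, a repressor of apoptosis whose name alone fits the rule, had at most 9 reads in any sample. Nol7, a tested nucleolar protein, lay between 0 and 2.14 CPM. With so few reads no difference could be seen in them, and why they held so few was not tested.

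From 3 h to 12 h few genes changed by the call rule in any lineage. In osteogenesis 0 of 29 genes were called between the 2 times (limma; 7.82% of all tested names were called in either direction), with 10 at an unadjusted p under 0.05, 1 call by edgeR and 0 by DESeq2. In adipogenesis 5 were lower at 12 h than at 3 h, Nip7, Rrp12, Rrp15, Rrp1b and Tsr1 (7.82% of all tested names lower), with a median of −0.45 over the 29 genes. That count was 3 with the listed-gene sum, 2 without AD 12 h replicate 2 and 6 without AD 12 h replicate 1. In chondrogenesis 1 was lower, Rrp1b at −1.34 (SE 0.09; adjusted p = 4.14e-12; 5.94%), with a median of −0.48. The difference in the change was called for Rrp1b between osteogenesis and adipogenesis (1.01, SE 0.13; adjusted p = 2.25e-06), where 11.1% of all tested names were called, and for Rrp1b and Utp11 between osteogenesis and chondrogenesis (1.19 and 1.04), where 14.1% were. The call between osteogenesis and adipogenesis was lost with edgeR, DESeq2 and every other scaling, and between osteogenesis and chondrogenesis 0 were left with edgeR, median ratios and quantile normalization and 1 with DESeq2 and the listed-gene sum. Between chondrogenesis and adipogenesis 0 were called by limma (14.3% of all tested names), with 7 at an unadjusted p under 0.05 and 0 by edgeR and DESeq2.

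From 12 h to 72 h of osteogenesis 14 of 29 genes were called lower and 0 higher, where 13.5% of all tested names were called lower and 9.67% higher, with a median of −0.87. Rrp12 fell by 1.85 (log2, SE 0.14; adjusted p = 1.95e-12), Rrp15 by 1.48 and Ftsj3 by 1.47, and all 6 tested large-subunit factors were among the 14. The count was 12 with median-ratio scaling, 3 with quantile normalization (10.96% of all tested names lower) and 8 with rescaling to the listed-gene sum. In chondrogenesis 3 were lower, Tsr1 at −1.78, Rrp12 at −1.59 and Utp20 at −1.39 (5.23% of all tested names lower), a count that was 7 without CH 12 h replicate 3, 5 without CH 72 h replicate 1 and 3 with each other scaling.

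In adipogenesis limma called 0 genes from 12 h to 72 h (10.8% of all tested names lower), with 16 at an unadjusted p under 0.05 and 0 by edgeR and DESeq2. The median of −0.28 there turned to 0.16 with median-ratio scaling, which shifted the log2 fold changes of all tested names by a median of 0.34, and AD 72 h replicate 3 had the lowest share of reads on listed genes, so no direction is given. The 12 h to 72 h change was more negative in osteogenesis than in adipogenesis for Rrp12, Rrp15, Rrp1b and Utp20 (−1.46, −1.26, −1.06 and −1.05; 14.2% of all tested names called in either direction), and 7 genes were called with edgeR and quantile normalization and 10 with DESeq2 and median ratios. Between osteogenesis and chondrogenesis 3 genes were called (22.5%), Nop10 and Utp23 with a more negative change in osteogenesis (−1.03 and −1.19) and Tsr1 with a less negative one (1.24), and 1 with quantile normalization and the listed-gene sum. Between chondrogenesis and adipogenesis 4 were called (19.3%), Rrp12, Tsr1 and Utp20 with a more negative change in chondrogenesis and Nop10 with a more positive one.

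Between lineages at the same time, direct comparisons called few of these genes. At 3 h 1 gene differed between osteogenesis and adipogenesis, Gtf3c3 (−1.77, SE 0.36; limma, adjusted p = 4.60e-04), where 7.66% of all tested names were called in either direction. The same gene differed between chondrogenesis and adipogenesis (−1.29; adjusted p = 8.24e-03; 9.35%). Between osteogenesis and chondrogenesis limma called 0 (7.31%), with 13 at an unadjusted p under 0.05 and 0 by edgeR and DESeq2, and the differences ranged from −0.57 to 0.50.

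At 12 h 4 of 29 genes differed between osteogenesis and adipogenesis, close to the share of all tested names. Ddx18, Rrp15 and Rrp1b were higher in osteogenesis, by 1.04, 1.04 and 1.0 (limma, adjusted p = 1.54e-08, 5.67e-05 and 1.03e-09), and Gtf3c3 was lower by a difference of −1.20, with overlapping samples, where 13.2% of all tested names were called. Rrp15, for example, read 131, 111 and 113 CPM at 12 h of osteogenesis and 78.3, 40.5 and 57.5 CPM at 12 h of adipogenesis. Without AD 12 h replicate 1 the count rose from 4 to 9, of which 8 were higher in osteogenesis, while with edgeR, DESeq2 and each of the 3 other scalings the 3 higher calls were lost and the 1 gene left was lower in osteogenesis. Against chondrogenesis 1 gene was called, Utp23 (1.03; adjusted p = 1.83e-05; 16%), at 77, 81.2 and 80 CPM against 37.3, 34.6 and 43.7 CPM, and 0 with edgeR, DESeq2 and those scalings. The median difference of the 29 genes was 0.53 against adipogenesis and 0.52 against chondrogenesis, where that of all tested names was 0.03 and 0. These medians were 0.28 and 0.30 with quantile normalization and 0.25 and 0.38 with the listed-gene sum. Between chondrogenesis and adipogenesis 0 were called by limma, edgeR and DESeq2 (13.6% by limma), with 10 at an unadjusted p under 0.05.

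**Figure D5:**
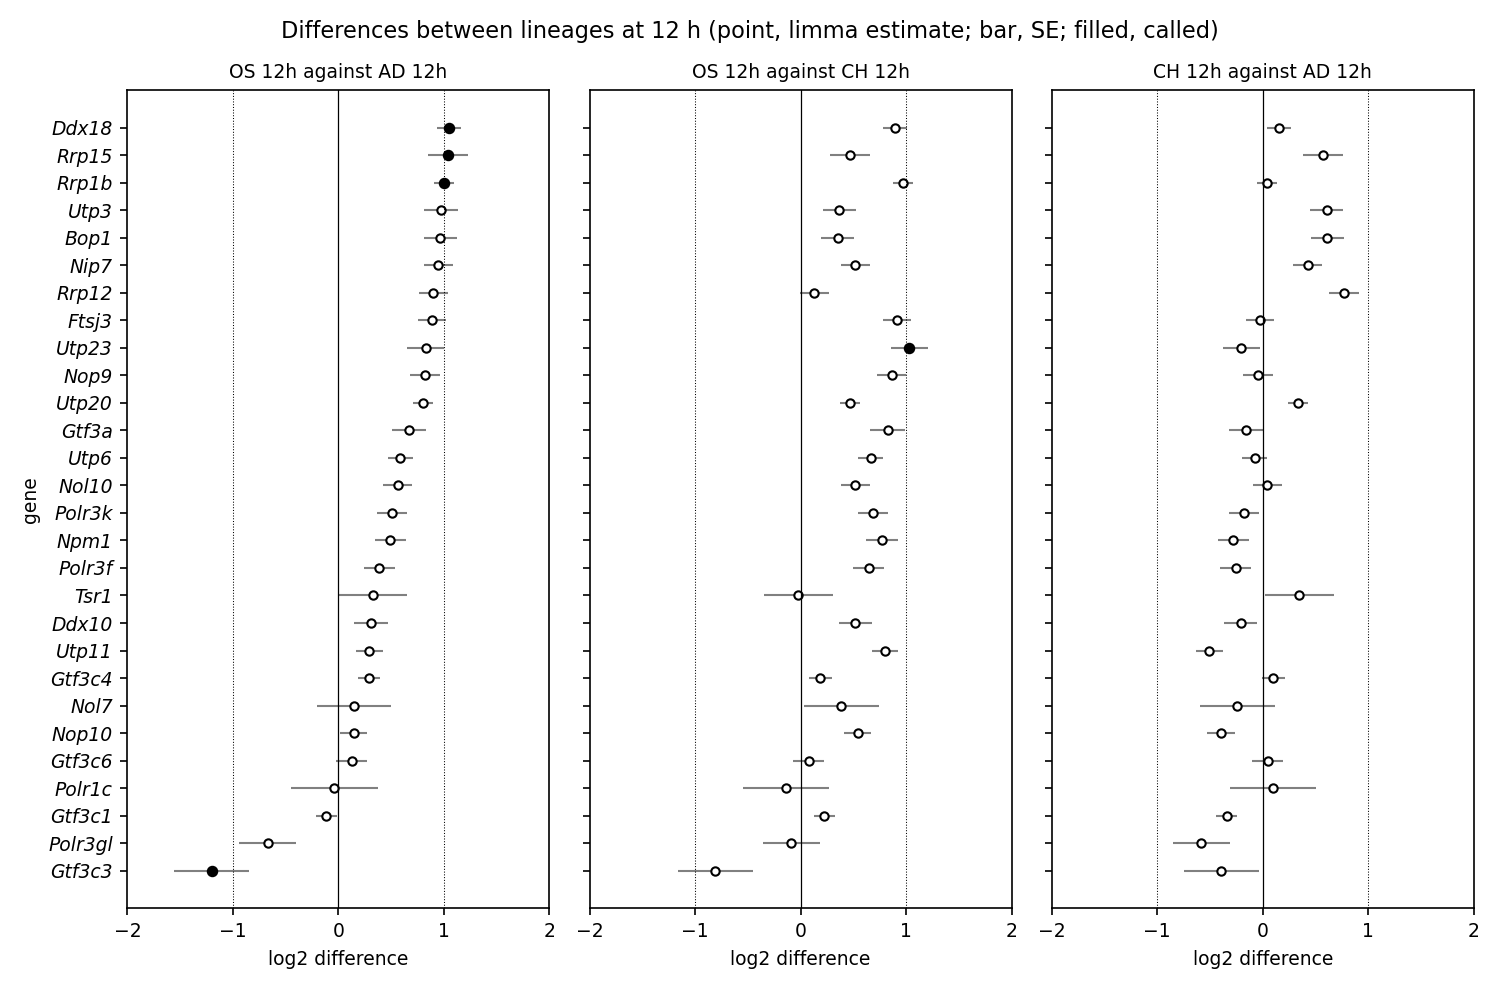
Difference in log2(CPM + 1) at 12 h between the lineages (horizontal axis; limma estimate as point, SE as bar, filled where called) for tested genes (vertical axis). Most points lie to the right of 0 where osteogenesis is compared with adipogenesis or chondrogenesis (medians over the 29 genes of 0.53 and 0.52), and they lie on both sides of 0 between chondrogenesis and adipogenesis (median of −0.04).

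At 72 h the genes called between lineages were low ones. Polr3gl was lower in osteogenesis and in chondrogenesis than in adipogenesis (−1.06 and −1.13; limma, adjusted p = 2.17e-03 and 8.76e-04). It read 1.07, 1.42 and 2.85 CPM in adipogenesis and 0.513, 0 and 0.222 CPM in chondrogenesis, the latter at most 2 reads a sample, which makes it at least 2.31-fold lower on a floor of 3 reads per library. Tsr1 was lower in chondrogenesis than in osteogenesis and adipogenesis (differences of 1.22 and −1.55, named in the order osteogenesis against chondrogenesis and chondrogenesis against adipogenesis), and Gtf3c3 was lower in osteogenesis than in adipogenesis (−1.0; adjusted p = 0.0256). Without AD 72 h replicate 3 the 2 calls between osteogenesis and adipogenesis were lost (0 remained) and 1 of the 2 between chondrogenesis and adipogenesis was. Between osteogenesis and adipogenesis 0 were also left without OS 72 h replicate 1, and 1 was left without AD 72 h replicate 2, OS 72 h replicate 2 or OS 72 h replicate 3. All tested names were called at 13.7, 19.6 and 25.5% for osteogenesis against adipogenesis, osteogenesis against chondrogenesis and chondrogenesis against adipogenesis.

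Other genes of the pathway, from lists held beside the 39, were read off the same fit. Of 33 tested processing and assembly genes with other names, 12, 8 and 11 were called higher in the osteogenic, adipogenic and chondrogenic samples at 3 h (11.7, 12.4 and 13.1% of all tested names). The counts changed to 14, 2 and 4 at 12 h (14.7, 8.14 and 9.44%) and then to 0, 2 and 0 at 72 h (7.2, 6.19 and 11.6%). The adipogenic counts at 12 h and 72 h were no higher than that share. Only Rcl1 was called lower in any group, at 12 h of osteogenesis. The medians (log2) of this list stood at 0.86, 0.61 and 0.52 at 3 h, against 0.11, 0.00 and 0.02 at 72 h. Bysl, a small-subunit assembly factor named after its values were seen, rose from a mean of 80.0 ± 7.36 CPM in CON to 346 ± 54.8 CPM at 3 h of osteogenesis (SD, n = 3; log2 fold change of 2.09; adjusted p = 6.11e-13). Exosc2, an RNA exosome subunit also named after its values were seen, went from 22.3 ± 3.40 to 136 ± 5.58 CPM at 12 h of osteogenesis (2.57; adjusted p = 1.88e-15).

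Among 5 tested polymerase I and III factors with other names, 1 was called, Cd3eap, in 6 of the 9 groups. Cd3eap is an older name of the polymerase I subunit Polr1g in RefSeq, and it was named after its values were seen. Its mean was 24.8 ± 1.47 CPM in CON, 233 ± 22.7 CPM at 3 h of osteogenesis, 85.0 ± 7.47 CPM at 3 h of adipogenesis and 218 ± 14.1 CPM at 3 h of chondrogenesis (SD, n = 3), with log2 fold changes of 3.18, 1.74 and 3.09 (SE 0.18; limma, adjusted p = 7.81e-15, 3.09e-09 and 1.86e-14). At 72 h of chondrogenesis it was still called, at 88.2 ± 25.8 CPM (1.76; adjusted p = 2.23e-09), whereas at 72 h of osteogenesis it read 33.3 ± 4.09 CPM (0.41).

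Ribosomal protein genes, the structural parts of the finished ribosome, were read from the same fit. Of 33 tested names of that kind (1 of them a kinase that shares the prefix), 7, 15 and 7 were called higher in osteogenesis (3 h, 12 h and 72 h), 9, 3 and 1 in adipogenesis and 4, 5 and 4 in chondrogenesis. Over all tested names the shares called higher were 11.7, 14.7 and 7.2%, 12.4, 8.14 and 6.19%, and 13.1, 9.44 and 11.6%. Their summed level was 11319 ± 198 CPM in CON and 22505 ± 517 CPM at 72 h of osteogenesis, a time at which the 39 assembly and polymerase genes summed to 3026 CPM. In adipogenesis the ribosomal protein sum went from 20155 CPM at 3 h to 19097 CPM at 12 h and 12037 CPM at 72 h. No difference in time course between the lists was tested. At 72 h of osteogenesis the median (log2) was 0.74 for the ribosomal protein names and 0.19 for the 29 genes. Several ribosomal protein names have processed copies elsewhere in the genome, so how reads were split among them is uncertain.

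The levels of Myc and of cell cycle genes are given because both are known to move with ribosome assembly. Myc, a known activator of the pathway, was listed at or below 0.49 CPM in every sample, so its level could not be compared. Why it held so few reads was not tested. Mxd4, a Myc antagonist named outside the naming rule, was called lower at 3 h and 12 h of osteogenesis and at 3 h of adipogenesis (−1.24, −1.32 and −1.39). It was the only gene called against CON among 4 tested Myc network genes. Of 7 tested cell cycle genes 6 were called higher at 3 h in each lineage and at 12 h of osteogenesis and adipogenesis, and 0 at 12 h of chondrogenesis. At 72 h 4 were called lower in osteogenesis, 3 in adipogenesis and 0 in chondrogenesis. Their sum was 360 CPM in CON, 3377 CPM at 12 h of osteogenesis, 1548 CPM at 12 h of adipogenesis and 399 CPM at 12 h of chondrogenesis. Their part in the levels of the ribosome assembly genes was not tested.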

How the data were processed

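RNA of 30 samples (10 groups of 3) was sequenced. The labels name a kit that removes ribosomal RNA and marks strand, and the study's methods describe an mRNA library, so which was used is not settled here. Per the submitters' processing notes, Trimmomatic, HISAT2 and StringTie were used. The genome build is not given in the sources used here. The values deposited by the authors, 1 file per sample, are CPM: although named as FPKM, 100% of values in every sample were whole multiples (within 0.02 of a read) of a single step, so whole reads could be recovered, and the total they refer to exceeded the sum of listed genes. The step carries no gene length, so levels are not compared between genes. Replicates correlated at r = 0.971 to 0.994.

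The 10803 entries were summed to 9999 names (3 of the 39 genes had more than 1 entry). Groups came from the labels. The 4363 names that reached 1 CPM in 3 or more samples entered limma 3.58.1 (R 4.3.3; linear model of 10 groups over all 30 samples, no covariates, empirical Bayes with trend) on log2(CPM + 1), which understates changes of low genes, with Benjamini-Hochberg adjusted p over all 4363 names. A call needed an adjusted p under 0.05 and a log2 difference whose size was 1 or more. The same model tested times within a lineage, lineages at a time and the difference of changes between lineages. Members and lists were chosen with earlier results of these data known. Genes were named by rule: per role and comparison with CON the 2 called genes with the largest fold, the most often called genes, the largest changes between times and lineages, and fixed names such as Npm1, Bop1, Gtf3a, Polr3gl and Myc. Some genes named outside this rule are marked as named after their values were seen. Others outside it, such as Mxd4, Nol10, Utp3, Utp6 and Gtf3c4, are not marked. Rows of the other lists (10 Myc network names, 20 cell cycle names) were read off the same fit.

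Alternatives were a pseudocount of 0.1, no filter, median-ratio scaling, quantile normalization, rescaling to the listed-gene sum, the compared groups alone, a replicate block, leaving out each sample, the highest entry per name, and edgeR 4.0.16 (quasi-likelihood) and DESeq2 1.42.0 on recovered reads. On simulated counts for 3 h of osteogenesis against CON (4363 names, 200 changed by a log2 fold of 2), limma recovered 147 with 0 false calls, and 83 of 83 among those of at least 10 CPM. In the same counts edgeR recovered 167 with 4 false calls. The simulated fold lies above the call threshold of 1, so recovery near that threshold was not measured. Promoter windows came from RefSeq (GRCr8), matched by symbol. The results of 1 gene are not reported here singly. Floors of 3 reads cover counting error only.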

Additional observations from a re-analysis of the deposited data

Results flagged for a closer look

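Tests of the difference between lineages singled out 26 values among the 29 genes (limma, log2 scale, each with an adjusted p under 0.05). In that fit no comparison held more than 4 of the 29 genes, counts close to or below the share of all tested names called. For the change from 12 h to 72 h of osteogenesis against adipogenesis, 7 were called with edgeR and quantile normalization (10.9 and 13% of all tested names) and 10 with DESeq2 and median ratios (11.5 and 13%). Without AD 12 h replicate 1 the count for these lineages at 12 h was 9 (16.9%). That share was 7.66 and 9.35% for osteogenesis and chondrogenesis against adipogenesis at 3 h, and 13.2 and 16% for osteogenesis against adipogenesis and chondrogenesis at 12 h. At 72 h it was 13.7, 19.6 and 25.5% (OS against AD, OS against CH and CH against AD), and for the change from 12 h to 72 h it was 14.2, 22.5 and 19.3% in that order. At 3 h Gtf3c3 was lower in osteogenesis (−1.77) and in chondrogenesis (−1.29) than in adipogenesis. At 12 h osteogenesis exceeded adipogenesis for Ddx18 (1.04), Rrp15 (1.04) and Rrp1b (1.0), was below it for Gtf3c3 (−1.20), and exceeded chondrogenesis for Utp23 (1.03). The calls of Ddx18, Rrp15, Rrp1b and Utp23 were each lost with edgeR, DESeq2 and each of the 3 other scalings. At 72 h osteogenesis was below adipogenesis for Gtf3c3 (−1.0) and Polr3gl (−1.06) and above chondrogenesis for Tsr1 (1.22), and chondrogenesis was below adipogenesis for Polr3gl (−1.13) and Tsr1 (−1.55).

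The change from 3 h to 12 h was more positive in osteogenesis than in adipogenesis for Rrp1b (1.01), and than in chondrogenesis for Rrp1b (1.19) and Utp11 (1.04). These changes were called for 11.1 and 14.1% of all tested names. The call against adipogenesis was lost with edgeR, DESeq2 and every other scaling, and against chondrogenesis 0 were left with edgeR, median ratios and quantile normalization and 1 with DESeq2 and the listed-gene sum. The change from 12 h to 72 h was more negative in osteogenesis than in adipogenesis for Rrp12 (−1.46), Rrp15 (−1.26), Rrp1b (−1.06) and Utp20 (−1.05). Against chondrogenesis it was more negative in osteogenesis for Nop10 (−1.03) and Utp23 (−1.19) and less so for Tsr1 (1.24). Chondrogenesis differed from adipogenesis over these hours for Nop10 (1.37), Rrp12 (−1.20), Tsr1 (−1.90) and Utp20 (−1.14). Gtf3c3, Polr3gl and Tsr1 are measured from few reads, and the 12 h values against adipogenesis include AD 12 h replicate 1, the library apart from its group.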

How the results depend on the processing

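No value turned its direction while called. With quantile normalization 11, 5, 8, 7, 0, 1 and 0 of the 29 genes were called at OS 3 h, OS 12 h, AD 3 h, CH 3 h, AD 12 h, CH 12 h and CH 72 h against CON, 3 from 12 h to 72 h of osteogenesis, and 1, 0, 1 and 4 for OS against AD at 12 h, OS against CH at 12 h, OS against AD at 72 h and CH against AD at 72 h. With median-ratio scaling the counts were 10, 9 and 0 at OS 12 h, CH 3 h and AD 12 h, and 1 and 0 for OS against AD and CH at 12 h. Rescaled to the listed-gene sum they were 10, 9, 1, 1 and 0 at OS 12 h, CH 3 h, AD 12 h, AD 72 h and CH 72 h, 8 from 12 h to 72 h of osteogenesis, 3 from 3 h to 12 h of adipogenesis, 1 and 0 for OS against AD and CH at 12 h, and 5 for CH against AD at 72 h. edgeR gave 10 (9 higher, 1 lower), 9, 0, 1 and 0 at OS 12 h, CH 3 h, AD 12 h, AD 72 h and CH 72 h, 1 and 8 for the osteogenic steps to 12 h and 72 h, 2 for OS against AD at 3 h (1 higher, 1 lower), and 1 and 0 for OS against AD and CH at 12 h. DESeq2 gave 11 (10 higher, 1 lower), 9, 0 and 1 at OS 12 h, CH 3 h, AD 12 h and AD 72 h, 2 for OS against AD at 3 h (1 higher, 1 lower), and 1 and 0 for OS against AD and CH at 12 h. With a pseudocount of 0.1 the counts were 3 at CH 72 h (1 higher, 2 lower), 0 for CH against AD at 3 h, 2 for OS against CH at 12 h and 1 for OS against AD at 72 h, which was also 1 without the filter and 0 with the compared groups alone. For differences of change between lineages, 3 h to 12 h gave 0 for OS against AD under edgeR, DESeq2 and each scaling, 0 for OS against CH under edgeR, median-ratio and quantile and 1 under DESeq2 and the listed-gene sum, and 1 for CH against AD under the listed-gene sum. From 12 h to 72 h OS against AD gave 7 with edgeR and quantile and 10 with DESeq2 and median-ratio, and OS against CH gave 1 with quantile and the listed-gene sum. Leaving out each sample moved the counts within 1 to 3 (AD 12 h), 2 to 5 (CH 12 h), 0 to 2 (CH 72 h), 2 to 6 and 0 to 2 (adipogenic steps), 3 to 7 (CH 12 h to 72 h), 1 to 2 and 0 to 1 (OS and CH against AD at 3 h), 1 to 9 and 1 to 2 (OS against AD and CH at 12 h) and 0 to 2 and 1 to 3 (OS and CH against AD at 72 h). Differences of change were not refitted without samples or on the compared groups alone. Of 105 values for named genes, 59 were still called with quantile normalization, 75 with edgeR, 76 with the listed-gene sum, 82 with median ratios and 83 with DESeq2. The causes were not tested.

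Replicate numbers did not pair the samples: deviations of same-numbered samples correlated at −0.226 to 0.16 (median −0.009, against 0.005 for other pairs), and 3 of 135 pairs exceeded 0.1. A fit with a replicate block gave 17, 17 and 14 calls at OS 3 h, OS 12 h and AD 3 h and changed no call. Low read counts limit Tsr1, Gtf3c3, Nol7, Polr1c and Polr3gl, whose lowest samples hold 0 to 3 reads.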

Other observations

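Rcl1, a factor of small-subunit processing outside the name rule and named here after its values were seen, was higher than CON in adipogenesis and lower in osteogenesis at 12 h. It stood at 6.43 ± 1.86 CPM in CON (SD, n = 3), at 17.2 ± 4.98 and 35 ± 8.65 CPM at 12 h and 72 h of adipogenesis (log2 fold changes of 1.29 and 2.28, SE 0.28; limma, adjusted p = 4.92e-04 and 1.05e-07), and at 1.61 ± 0.45 CPM at 12 h of osteogenesis (−1.49; adjusted p = 5.68e-05). It was the 1 gene among the 33 other processing genes called lower in any group against CON. Compared directly, osteogenesis was below adipogenesis at 12 h by a log2 difference of −2.78 and at 72 h by one of −3.10 (SE 0.28; limma, adjusted p = 4.14e-09 and 5.91e-10), and both were called under all 16 alternatives run.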
